A study of Homo sapiens with 4 samples.

Results

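The genes described here encode subunits of the SWI/SNF complexes. They are 10 genes chosen by symbol, SMARCA2, SMARCA4, ARID1A, ARID1B, ARID2, PBRM1, SMARCB1, SMARCC1, SMARCC2 and SMARCD1, of 63677 genes with a count in each library. Each symbol matched 1 gene on a primary chromosome, and all 10 genes passed the filter on low counts that kept 15398 genes. IMR90, a strain of human lung fibroblasts, was transfected with RNAiMAX and either non-targeting control siRNA (NTC) or siRNA against HMGB1, a nuclear protein that binds DNA, and was collected after 72 h. Poly(A) RNA was sequenced from 2 control and 2 HMGB1 knockdown libraries, and in both groups replicate 1 was the isolate I90-10 and replicate 2 the isolate I90-79. All libraries therefore carry the transfection, and by the labels the groups differ in the siRNA alone. The paper's methods name 2 different siRNAs for IMR90 but not how the libraries shared them. The cells were grown in the same medium from passage 5, and each group is 1 culture per isolate, so p-values measure the spread between these libraries.

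SWI/SNF complexes use the energy of ATP to slide or eject nucleosomes, which opens promoters and enhancers to transcription factors. Each complex holds a single ATPase, SMARCA4 (BRG1) or SMARCA2 (BRM), on a core that includes SMARCC and SMARCD proteins. BAF complexes carry ARID1A or ARID1B together with SMARCB1, PBAF complexes carry ARID2 and PBRM1 together with SMARCB1, and a non-canonical form has BRD9 and neither ARID protein nor SMARCB1. Paralogues such as SMARCC1 and SMARCC2 can take each other's place or sit side by side, and cell types differ in which of them they use.

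The control libraries held 29869338 and 35317010 counted reads and the knockdown libraries 29861687 and 31086475. HMGB1 itself had 5322 and 8734 reads in the control and 461 and 589 in the knockdown libraries. All 10 fibroblast markers of a chosen list were above 1 CPM (read counts scaled by library size, here with the TMM method) in every library. Among epithelial markers KRT8 and KRT18 alone were above 1 CPM in every library. No endothelial marker of the 3 with a symbol in the files and no immune marker of 4 reached 1 CPM in every library, and CDH5 and CD3E were at 0 reads throughout. The summed level of the fibroblast markers was 40757 CPM in control and 37650 CPM in knockdown libraries of I90-10, and 22830 and 24642 CPM in those of I90-79. At an adjusted p below 0.05, 0 of the 10 fibroblast markers passed in the edgeR fit without the isolate. With the isolate as a replicate block 2 rose (COL3A1 and LUM) and 3 fell (PDGFRB, THY1 and FBN1). At this threshold the blocked fit had rises in 15.9% and falls in 16.3% of all genes tested. The summed epithelial markers had 64.0 and 67.9 CPM in control and 82.0 and 99 CPM in knockdown libraries, and with the block KRT18 was higher and KRT8 lower. KRT18 had 39.5 and 52.8 CPM in control and 65.9 and 88.8 CPM in knockdown libraries (adjusted p = 0.00095 with the block), and KRT8 had 18.3 and 13.8 against 12 and 9.16 CPM (0.0111). The endothelial markers summed to 1.5 and 1.49 CPM in control and 4.33 and 3.39 CPM in knockdown libraries, where VWF made up most of the sum and was higher with the block (adjusted p = 0.0036). The immune markers summed to between 0.0681 and 0.346 CPM. The part of these markers in the results below was not tested. Bulk counts cannot tell fewer cells of a type from less RNA per cell.

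Upon HMGB1 knockdown SMARCC1, a scaffold of the core, and ARID1A, the large DNA-binding subunit of BAF, fell at an adjusted p below 0.05 (−45.9% and −39.8% in the mean), and the ATPase gene SMARCA2 was lower by a smaller margin (−28.1%). The means of the other 7 genes differed by between −13.6% and 17.9%. Calls were made with edgeR's quasi-likelihood test, with 0.01 as the limit on the adjusted p and 0.6 as the limit on the size of the log2-fold change. By these thresholds 0 of the 10 genes were called, where 0.136% of all genes tested were called lower and 0.0649% higher, while 3 had an unadjusted p below 0.05, all of them lower. Of all genes tested 28.3% had such a p, 14.7% with a lower value. The 3 of 10 are thus close to the share for both directions together, and above the share for falls. Whether they exceed that share was not tested. DESeq2 called 2 of the 10 lower and 5.31% of all genes tested. At an adjusted p below 0.05 with any fold change, 2 of the 10 fell and 0 rose, while 4.5% of all genes tested fell and 3.94% rose. Both isolates occur in both groups, and adding the isolate to the fit, as a replicate block, called 2 genes lower and 0 higher by the stricter thresholds, against 7.84% and 6.68% of all genes tested. The 2 genes were SMARCC1 and ARID1A in each case. At an adjusted p below 0.05 the blocked fit had 3 falls, SMARCA2 being the third, and 0 rises, against 16.3% and 15.9% of all genes tested. The median log2-fold change of the 10 genes was −0.18, that of all genes tested −0.0054, and 7 of the 10 values were negative.

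**Figure D1:**
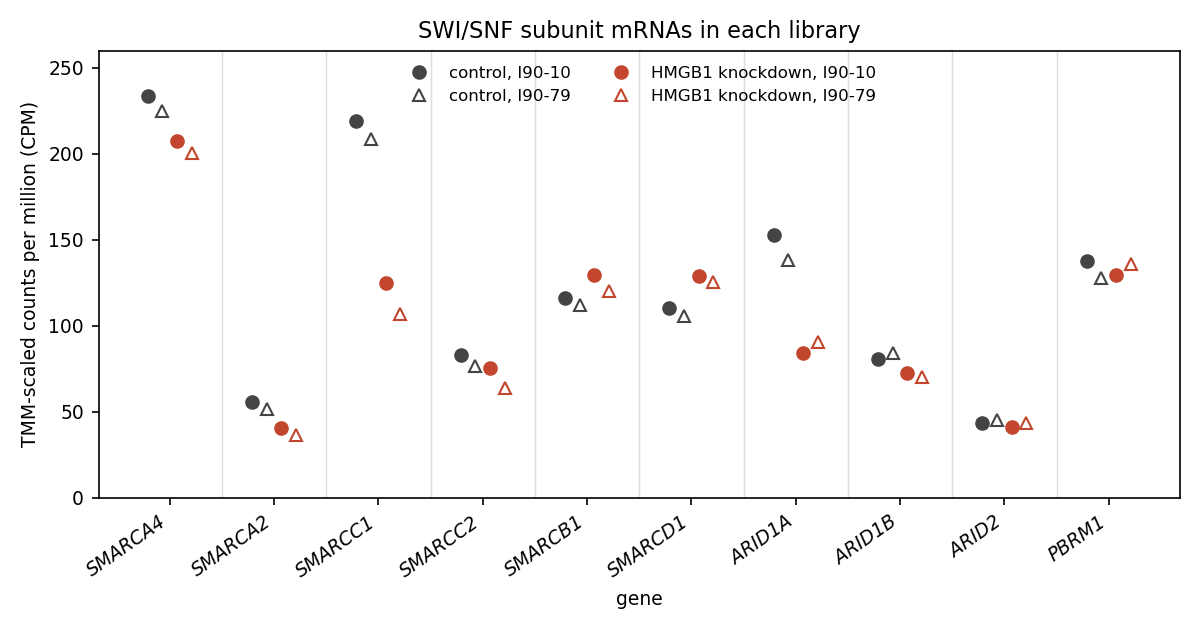
Level of each of the 10 subunit genes in TMM-scaled CPM, with 1 symbol per library, with controls in grey, HMGB1 knockdown in red, circles for isolate I90-10 and triangles for I90-79. The knockdown symbols of SMARCC1 (125 and 107 CPM) and ARID1A (84.5 and 90.8 CPM) lie far below their controls, while those of PBRM1 and ARID2 overlap with them.

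SMARCC1 (ENSG00000173473), known as BAF155, lies on the minus strand of hg19 at chr3:47626762-47823596. It had 219 and 209 CPM in the control and 125 and 107 CPM in the knockdown libraries, so the groups were well apart. The control mean was 214 ± 7.63 CPM (SD, n = 2) and the knockdown mean 116 ± 12.7 CPM (SD, n = 2), which is a 1.85-fold decrease. In the fit this was −0.89 on the log2 scale (standard error 0.13, adjusted p = 0.0247 from edgeR, and 0.00040 with the replicate block). The isolates gave −0.82 and −0.97, and the 95% interval ran from −1.21 to −0.56. The log2-fold change of SMARCC1 stayed between −1.01 and −0.78 without any 1 library. In those fits 1 group has a single library, which is assumed to vary like the other group. Without knockdown replicate 1 or 2, 0 of the 10 genes had a fall at an adjusted p below 0.05, as had 0.0617 and 0.205% of all genes tested, so these fits had little reach for any gene. Without control replicate 1 the count was 1, against 3.12%.

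ARID1A (ENSG00000117713), at chr1:27022524-27108595 on the plus strand, encodes the BAF subunit that is often lost by mutation in tumours. The control libraries had 153 and 138 CPM and the knockdown libraries 84.5 and 90.8 CPM, with a wide gap between the groups. The control mean was 146 ± 10.2 CPM (SD, n = 2) and that upon knockdown 87.6 ± 4.52 CPM (SD, n = 2), which is a 1.66-fold decrease. In the fit this was −0.73 on the log2 scale (standard error 0.12, adjusted p = 0.0292, and 0.00134 with the replicate block), with −0.86 in I90-10 and −0.61 in I90-79. ARID1B (ENSG00000049618, chr6:157099063-157531913, plus strand), which takes the place of ARID1A in other BAF complexes, had 80.9 and 84.3 CPM in control and 72.7 and 70.1 CPM in knockdown libraries. Both knockdown values were lower, but the difference of −0.21 on the log2 scale (adjusted p = 0.258, standard error 0.11) did not pass the test. The 95% interval from −0.48 to 0.06 leaves out the −0.73 of ARID1A but overlaps the interval of ARID1A, from −1.03 to −0.44. The difference between the changes of both ARID1 genes was not tested.

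In an earlier analysis of these counts the 6-base word GCAGTT in a 3′ UTR went with lower values across all genes, so its link with a fall is no independent evidence here. It was searched on the transcribed strand in 1 transcript per gene of the GENCODE annotation lifted to hg19. Of 12751 tested genes with such a 3′ UTR, 35.1% held at least 1 copy. Of the 10 subunit genes 6 did, with those of SMARCB1 beyond the counted gene. Genes with a copy had a median 3′ UTR of 2839 bases, against 1355 for all genes, and these shares were not matched for length. SMARCC1, which fell most, held 4 copies in 2940 bases, and ARID1A held 1 in 1348 bases. The sites of these genes are given 5′ to 3′ on the strand of the gene, with the word in capitals, since they mark where the word stands in the genes that fell.

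SMARCC1 at chr3:47629341-47629368: tttgctctcttGCAGTTttttgctttgt
SMARCC1 at chr3:47628200-47628227: attctcaagtgGCAGTTtcattatttag
SMARCC1 at chr3:47627273-47627300: tggtttgatcaGCAGTTaaaattctgtg
SMARCC1 at chr3:47627060-47627087: tttgtcaggatGCAGTTtagacagtccc
ARID1A at chr1:27107753-27107780: ccaagaagttcGCAGTTgtgaacagacc

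Of the ATPases, SMARCA4 (ENSG00000127616, chr19:11071598-11176071, plus strand) had the most reads, with 233 and 225 CPM in control and 208 and 201 CPM in knockdown libraries. The difference was −0.17 on the log2 scale in both isolates and in the fit (standard error 0.11, adjusted p = 0.377, 95% interval from −0.45 to 0.11). SMARCA2 (ENSG00000080503, chr9:2015342-2193624, plus strand), the alternative ATPase, had 55.6 and 51.6 CPM in control and 40.5 and 36.5 CPM in knockdown libraries. Here the groups did not overlap either. The log2-fold change of SMARCA2 was −0.48 (standard error 0.12), with −0.46 and −0.50 in the isolates. It missed an adjusted p of 0.05 without the block (0.0745) and passed with it (0.0081). The difference between the changes of both ATPase genes was not tested.

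The remaining subunits did not pass the test in either fit. ARID2 (ENSG00000189079, chr12:46123448-46301823, plus strand), the DNA-binding subunit of PBAF, had 43.5 and 45.3 CPM in control and 41.0 and 43.8 CPM in knockdown libraries, so the groups overlapped. In the fit it differed by −0.07 on the log2 scale (standard error 0.11, adjusted p = 0.739, 95% interval from −0.35 to 0.22). PBRM1 (ENSG00000163939, chr3:52579368-52719933, minus strand), the bromodomain protein of PBAF that reads acetylated histones, had 138 and 128 CPM in control and 130 and 136 CPM in knockdown libraries. The knockdown values of PBRM1 lay between the controls, and the difference was 0.0027 on the log2 scale (standard error 0.11, adjusted p = 0.99, 95% interval from −0.28 to 0.28). Decreases of the size seen in SMARCC1 and ARID1A lie outside both of these intervals.

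SMARCB1 (ENSG00000099956, chr22:24129150-24176703, plus strand), the core subunit that anchors the complex to the nucleosome, had 116 and 112 CPM in control and 130 and 120 CPM in knockdown libraries. Both knockdown values were above both controls, and the log2-fold change was 0.13 (adjusted p = 0.480, standard error 0.11). SMARCD1 (ENSG00000066117, chr12:50478755-50494495, plus strand), which links the core to transcription factors, had 111 and 105 CPM in control and 129 and 125 CPM in knockdown libraries. Its difference of 0.24 (standard error 0.11, adjusted p = 0.215, and 0.0833 with the replicate block) was the highest of the 10 and did not pass. SMARCC2 (ENSG00000139613, chr12:56556767-56583351, minus strand), known as BAF170, had 83.3 and 76.5 CPM in control and 75.8 and 64.0 CPM in knockdown libraries. The upper knockdown value nearly reached the lower control, and the log2-fold change of SMARCC2 was −0.19 (standard error 0.13, adjusted p = 0.391, 95% interval from −0.53 to 0.14).

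Counted over the 10 genes, both knockdown libraries were below both controls for 6 and above both for 2, where 30.2% of all genes tested were below and 29.8% above. ARID2 and PBRM1 were the 2 genes whose groups overlapped. The sign of the difference was the same in both isolates for 9 of the 10, the exception being PBRM1, and for 78.3% of all genes tested.

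**Figure D2:**
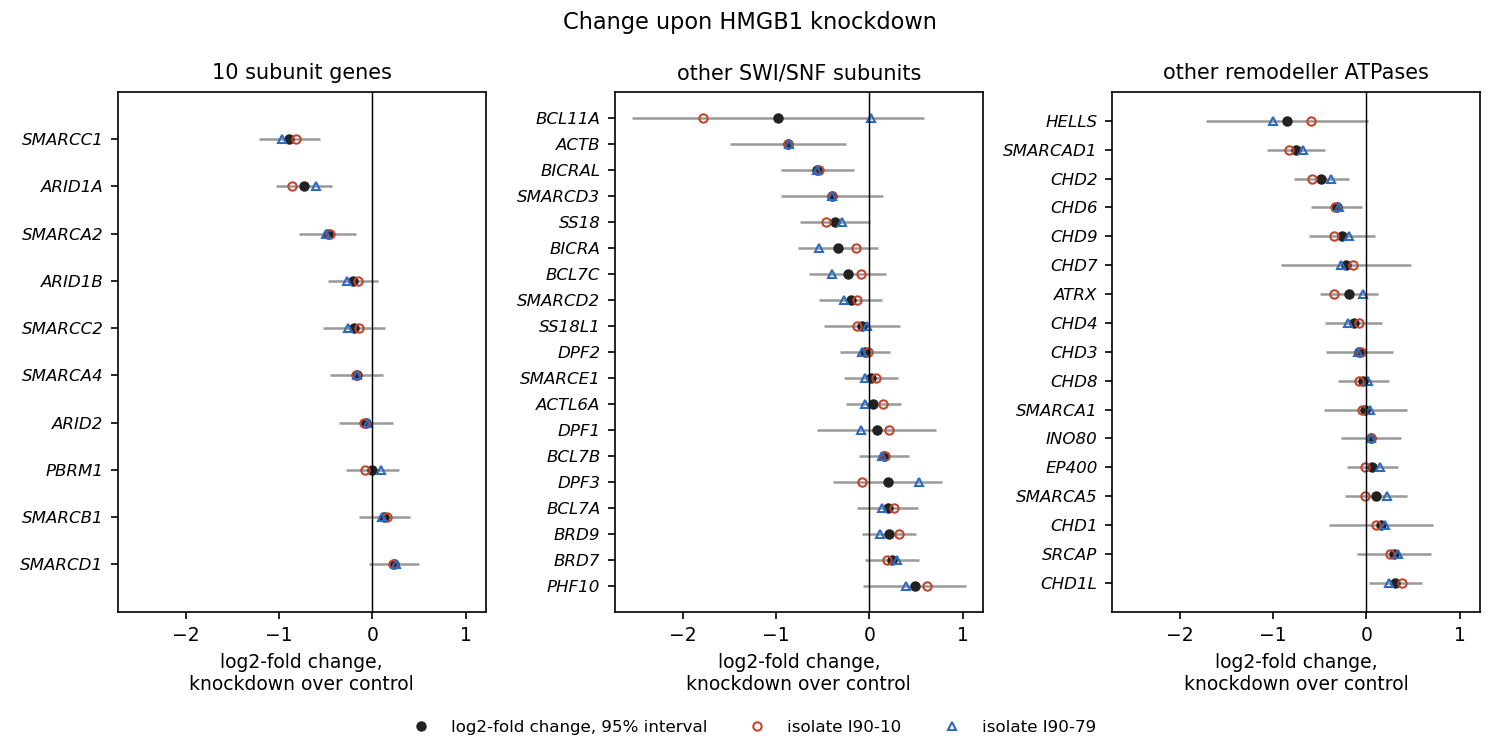
Log2-fold change of HMGB1 knockdown over control for the 10 subunit genes (left), other SWI/SNF subunits (middle) and other remodeller ATPases (right), with filled circles for the fit, bars for its 95% interval, open circles for isolate I90-10 and triangles for I90-79. SMARCC1 (−0.89) and ARID1A (−0.73) lie at the left of the first panel. Values of similar size are those of ACTB (−0.87) and BCL11A (−0.98, below 1 CPM) in the middle panel. In the right panel they are those of HELLS (−0.85) and SMARCAD1 (−0.75). Values above 0 number 9 and 6 in these 2 panels, and most other genes lie near 0.

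The isolates were compared in the fit with group and isolate as terms. Of the 10 genes 0 differed between I90-79 and I90-10 at an adjusted p below 0.05 (edgeR, smallest adjusted p = 0.320, and 0 with an unadjusted p below 0.05), a threshold that 6.79% of all genes tested passed. The largest difference was that of SMARCC2, which was lower by a log2 value of 0.18 in I90-79 (written as I90-79 minus I90-10, −0.18), and that of SMARCC1 was −0.15. The median absolute difference over all genes tested was 0.19, and each of the 10 genes lay below it.

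Levels of different genes were set side by side per length, as RPKM, the CPM divided by kilobases of exonic sequence. SMARCB1 stood first in every library with a mean of 48.2 RPKM and a range from 45.1 to 52.2. SMARCD1 (22.9), SMARCC1 (21.6) and SMARCA4 (19.8) followed, and the ranges of neighbours among these 3 overlapped. PBRM1 (13.8) and ARID1A (12.6) came next, also with overlapping ranges, and then SMARCC2 (8.76), SMARCA2 (6.46), ARID1B (4.71) and ARID2 (3.58), in that order in each of the 4 libraries. The ranges of ARID1A and SMARCC2, of SMARCC2 and SMARCA2, and of SMARCA2 and ARID1B overlapped when both groups were pooled, while ARID2 lay below ARID1B throughout. SMARCC1 was rank 2 in both control libraries and rank 4 and 5 in the knockdown libraries. SMARCD1 went the other way, from rank 3 and 4 to rank 2 in both. ARID1A was rank 5 in both controls and rank 6 in both knockdown libraries. The exonic length merges all transcripts of a gene, so levels of genes with many unused exons are understated. SMARCB1 had the shortest counted length of the 10, 2481 bases, so its first place depends on the division by length. By CPM its mean (120) was below that of SMARCA4 (217).

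Shares of reads per length within groups of interchangeable subunits are given for each library, and with 2 libraries per group their differences cannot pass a test. SMARCC2 made up 25.3 and 24.7% of the SMARCC reads per length in control and 35.2 and 34.9% in knockdown libraries, a difference of 10.0 percentage points that was close to the same in both isolates. The sum of SMARCC1 and SMARCC2 was 37.6% lower upon knockdown, so the larger share of SMARCC2 came with no rise of its level. ARID1B made up 23.1 and 25.7% of ARID1A and ARID1B in control and 32.8 and 30.4% in knockdown libraries, and the sum of this pair was 33.4% lower. Its share was higher by 9.73 points in I90-10 and by 4.74 points in I90-79.

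Of the ATPase reads per length SMARCA2 made up 26.8 and 26.0% in control and 23.1 and 21.9% in knockdown libraries, while the sum of SMARCA2 and SMARCA4 was 15.5% lower. Among the SMARCD genes the share of SMARCD1 was 47.4 and 49.3% in control and 54.6 and 58.7% in knockdown libraries. Both other SMARCD genes had a lower share, SMARCD2 with 40.6 and 40.9% against 36.4 and 33.9%, and SMARCD3 with 12 and 9.80% against 8.91 and 7.44%. The sum of the SMARCD genes differed by 0.771%. In all of these shares the groups did not overlap, and the exact two-sided permutation p was 0.333, the smallest that 2 libraries against 2 can give.

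**Figure D3:**
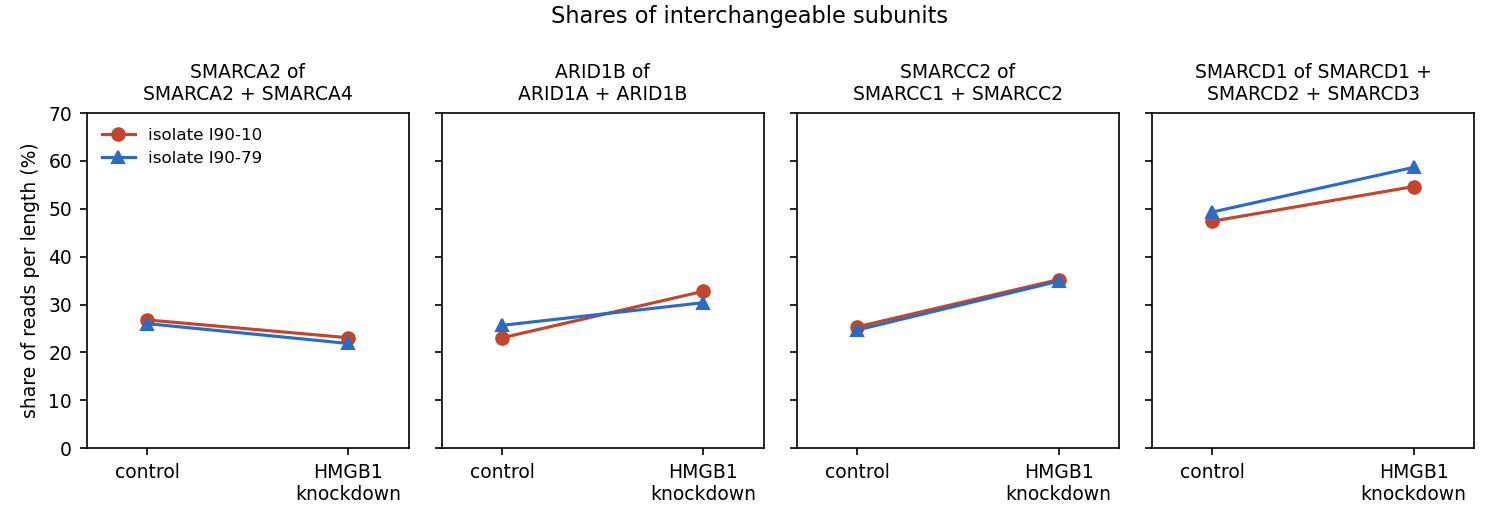
Share of a subunit in the reads per length of its group of interchangeable subunits, in percent, with 1 line per isolate from control to HMGB1 knockdown. SMARCC2, ARID1B and SMARCD1 had a higher share in both knockdown libraries and SMARCA2 a lower one, from 26.8 and 26.0% to 23.1 and 21.9%.

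The other genes of the complexes were taken as a list of 21, of which 19 were tested. ACTL6B and BCL11B, subunits of neuronal and lymphoid forms, had at most 3 reads in any library and were left out by the filter. By the thresholds used above 0 were called in either direction, and at an adjusted p below 0.05 also 0, while 2 had an unadjusted p below 0.05, both of them lower, and DESeq2 called 1 lower. The shares of all genes tested were 28.3% for an unadjusted p below 0.05 and 5.31% for a lower call by DESeq2. At an adjusted p below 0.05, 4.5% of all genes tested fell and 3.94% rose. Their median log2-fold change was −0.05, with 9 positive and 10 negative values. With the replicate block 1 gene was called lower, ACTB, against 7.84% of all genes tested. At an adjusted p below 0.05 this fit had 4 falls and 1 rise among the 19, against 16.3% and 15.9% of all genes tested. The falls lie near that share, and the rises lie below it.

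ACTB, which encodes β-actin and is also part of the cytoskeleton, had 4738 and 3490 CPM in control and 2583 and 1925 CPM in knockdown libraries. This is −0.87 on the log2 scale (standard error 0.25, adjusted p = 0.0934, and 0.000453 with the replicate block), close to alike in both isolates at −0.88 and −0.86. The isolates differed in ACTB as well (adjusted p = 0.0364). BICRAL, a subunit of the non-canonical complex, differed by −0.56 on the log2 scale (standard error 0.16, adjusted p = 0.0900, and 0.0158 with the block), from 16.1 and 15.0 CPM to 11 and 10.1 CPM. SS18, which is fused to SSX genes in synovial sarcoma, had −0.37 (standard error 0.15, adjusted p = 0.182, and 0.0210 with the block).

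The paralogues of SMARCD1 both had negative values. SMARCD2 had 68.8 and 63.5 CPM in control and 62.6 and 52.7 CPM in knockdown libraries, or −0.20 on the log2 scale (standard error 0.13, adjusted p = 0.384). SMARCD3, of which 13.7% of the exonic bases overlap genes on the other strand, had 28.3 and 21.2 CPM in control and 21.3 and 16.1 CPM in knockdown libraries. Its groups overlapped by a small margin, and its log2-fold change of −0.40 was alike in both isolates (standard error 0.22, adjusted p = 0.287, and 0.0290 with the block). The single rise with the block was that of PHF10, a PBAF subunit named here after its values were seen. PHF10 had 31.5 and 45.7 CPM in control and 48.3 and 59.9 CPM in knockdown libraries, a difference of 0.50 on the log2 scale with the block (adjusted p = 0.0089) and 0.49 without it (adjusted p = 0.217). Of its exonic bases 8.95% overlap C6orf120 on the other strand.

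ATPases of other remodeller families were taken for comparison, 18 genes of which 17 were tested and CHD5 was left out by the filter. Their median log2-fold change was −0.07, with 6 positive and 11 negative values. By the stricter thresholds edgeR called 0 and DESeq2 called 1 lower, where 0.136% and 5.31% of all genes tested were called lower. An unadjusted p below 0.05 was found for 4, against the 28.3% of all genes tested. At an adjusted p below 0.05, where 4.5% of all genes tested fell, there was 1 fall, that of SMARCAD1, a remodeller of heterochromatin. It had 65.3 and 67.7 CPM in control and 36.8 and 42.1 CPM in knockdown libraries, or −0.75 on the log2 scale (standard error 0.12, adjusted p = 0.0302, and 0.0011 with the block). CHD2 and CHD6, chromodomain remodellers, had −0.48 (standard error 0.12, adjusted p = 0.0694, and 0.0078 with the block) and −0.32 (standard error 0.11, adjusted p = 0.133, and 0.0350 with the block). With the block 2 genes of this list were called lower, SMARCAD1 and HELLS, the latter named after its values were seen, and at an adjusted p below 0.05 there were 4 falls and 2 rises, where the shares of all genes tested were 7.84, 16.3 and 15.9%. Whether the SWI/SNF genes differ from this list was not tested.

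Beside SMARCC1 and ARID1A, whose copies of GCAGTT are given above, SMARCA4, ARID1B and ARID2 held 1 copy each and did not pass the test. Their sites are given for comparison.

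SMARCA4 at chr19:11172781-11172808: actgttgcgccGCAGTTtggagtcactg
ARID1B at chr6:157531172-157531199: gacaagaacatGCAGTTacagtcattgt
ARID2 at chr12:46300566-46300593: aaatgattgatGCAGTTaaagctcaata

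SMARCB1 held 2 copies, both beyond the end of the gene as counted in the files, and its log2-fold change was 0.13. PBRM1, SMARCA2, SMARCC2 and SMARCD1 held none, and among these SMARCA2 was the gene that passed with the block. Over all 12751 genes the median log2-fold change was 0.07 without the word, −0.10 with 1 copy and −0.26 with 2 or more, and the median length of the 3′ UTR was 830, 2195 and 4189 bases. Since the word went with lower values in an earlier analysis of these counts, this order of the medians is no independent evidence. Copies and length of the 3′ UTR also move together. Whether the siRNAs, whose sequences were not used here, pair with these sites was not tested.

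**Figure D4:**
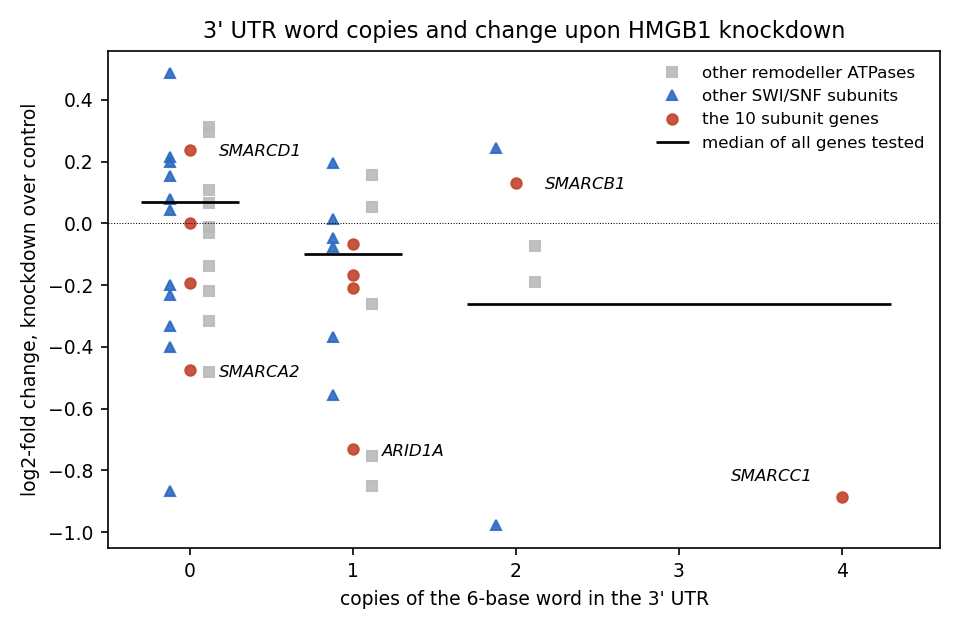
Log2-fold change of HMGB1 knockdown over control against the number of copies of the 6-base word in the 3′ UTR, with red circles for the 10 subunit genes, blue triangles for other SWI/SNF subunits, grey squares for other remodeller ATPases and black lines for the median of all genes tested with 0, 1 and 2 or more copies. SMARCC1 lies alone at 4 copies, and genes with 0, 1 or 2 copies range on both sides of 0. The copies of SMARCB1, DPF2, DPF3 and CHD1 lie beyond the genes as counted. An earlier analysis of these counts had linked the word to lower values, so the medians are no independent evidence.

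Reads of near-identical or overlapping genes may touch a few of the levels above, which was not tested on the reads. The 50-base pieces were taken from all annotated transcripts of a gene, so they may lie outside its counted exons. For SMARCB1 there were 16929 pieces, while its counted exonic length was 2481 bases. SMARCB1 had 17.3% of the 50-base pieces of its transcripts in transcripts of other genes, SMARCC2 8.85%, and SMARCC1 0.0263%, while ARID1A had 2.81% and SMARCA2 1.84%. Of the exonic bases of SMARCC2, 6.01% overlap MYL6 on the other strand, and the shares for PBRM1 and SMARCB1 were 1.51 and 0.564%. SMARCC1, ARID1A and SMARCA2 overlap no other gene in their exons.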

How the data were processed

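RNA-seq counts of 2 control and 2 HMGB1 knockdown IMR90 libraries were used. The authors sequenced TruSeq libraries of poly(A) RNA as read pairs, aligned them to hg19 with STAR at its default settings and deposited raw counts of unique reads per gene from featureCounts, together with each gene's exonic length. Tool versions, the strand setting and whether read pairs were counted once are not given in the sources used here, and reads of a gene and its antisense partner may therefore be mixed. Groups and isolates were taken from the labels.

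Counts were tested across all genes with edgeR 4.0.16 (R 4.3.3, limma 3.58.1), with filterByExpr, TMM normalization, the quasi-likelihood test and Benjamini-Hochberg adjustment over 15398 genes. Standard errors and 95% intervals come from the same fit. The thresholds were those of the study's methods (0.01 and 0.6) and an adjusted p of 0.05. The main fit has no term for the isolate. The replicate numbers pair the libraries, since each marks 1 isolate, and across genes the difference between the replicates had a correlation of 0.46 between control and knockdown. Alternatives were the replicate block, DESeq2 1.42.0 with and without it, RUVs with 1 factor followed by DESeq2, RLE and upper-quartile factors, no filter, at least 10 counts in every library, and leaving out each library. The edgeR and DESeq2 fits with and without the block, and the isolate term, were tested on simulated counts with known changes. These counts had a common dispersion and no isolate effect, and the other alternatives were not tested in this way. Every pair of libraries differed by more than sampling noise.

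The 10 genes and the gene lists were chosen with earlier results of these data known. The named genes are the 10, SMARCD2 and SMARCD3, in each other list the 3 with the smallest p, and HMGB1, and exceptions are stated. Per-length shares use CPM divided by exonic length. The 3′ UTRs were read from the GENCODE annotation lifted to hg19, and each site was checked against the genome. The authors' own fold changes and p-values were not used.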

Additional observations from a re-analysis of the deposited data

Results flagged for a closer look

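PBRM1 moved in opposite directions in the isolates upon HMGB1 knockdown. The log2-fold change was −0.083 in I90-10 and 0.089 in I90-79, each from 1 control and 1 knockdown library. The difference between the isolates was not tested, and both values are smaller than the standard error of 0.11 in the fit. No groups had 4 libraries, so single libraries far from the others could not be looked for.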

How the results depend on the processing

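No gene of the 10 was called by the thresholds of 0.01 and 0.6 in the test without a block, and 2 were called lower with the replicate block, DESeq2, DESeq2 with the block, RUVs followed by DESeq2, no filter on low counts, or an adjusted p of 0.05. Of the other SWI/SNF subunits 1 was called lower under each of the first 5 of these settings, and of the remodeller ATPases 2 with the block, RUVs and no filter and 1 with DESeq2, DESeq2 with the block and an adjusted p of 0.05. Of all genes tested 7.84% were called lower with the block, 5.31% with DESeq2 and 7.09% with DESeq2 and the block. The shares were 5.4% with RUVs, 4.65% with no filter and 4.5% at an adjusted p of 0.05, against 0.136% in the test without a block. Upper-quartile or RLE factors and a filter of 10 counts left the calls in each of these gene lists at 0. The median log2-fold change of the 10 genes was −0.12 with RUVs and between −0.22 and −0.13 without 1 library. At an adjusted p below 0.05, counted under all settings after the data had been seen, the falls numbered 2 or 3 in the fits with all libraries. They numbered 3 with the block, DESeq2, DESeq2 with the block, and no filter, against 16.3, 8.54, 11.7 and 6.84% of all genes tested. They numbered 2 in the test without a block, with RUVs, RLE or upper-quartile factors, or the filter of 10 counts. There 4.5, 8.62, 4.4, 4.46 and 5.23% of all genes tested fell. Without a knockdown library fewer genes passed, among the 10 and among all genes tested, as given above. PBRM1 turned negative with the filter of 10 counts (−0.0039) and ranged from −0.049 to 0.055 without 1 library. The change in the share of SMARCA2 was −3.06 points without division by length. The sign held for each of the other 9 genes under every setting run, and the block changed no other call of the 10 genes. With 2 libraries per group an effect near the standard error of 0.11 could not be told from 0. Effects well above it could be missed too. In the edgeR test without a block, SMARCD1 at 0.24 (adjusted p = 0.215) missed an adjusted p of 0.05. SMARCA2 at −0.48 (adjusted p = 0.0745) missed it in this test as well, while it passed with the block (0.0081).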
